A study of Mus musculus with 204 samples.

Results

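Subcutaneous white fat was compared between diet-induced obese (DIO) and lean mice, using 3 DIO and 3 lean libraries out of the 204 libraries of a mouse tissue series. They were chosen by their labels as subcutaneous fat, and 2 of the 5 lean subcutaneous libraries, lean 2 and lean 3, were left out because of high Cr2, a complement receptor gene of B cells and follicular dendritic cells. All animals were male, wild-type and of the inbred strain C57BL/6J, which becomes obese when fed much fat. DIO mice had eaten a diet with 60% fat for 10 weeks, starting at 4 weeks of age per the labels. Lean mice had eaten chow with 13.1% fat. The labels give an arrival age above that starting age, so the age at sacrifice is not settled by them. RNA came from frozen chunks of whole tissue, and the labels tie no library to a mouse, so the p-values below measure the spread between libraries.

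Subcutaneous fat stores triglyceride under the skin. Its adipocytes take up fatty acids from blood, make some from glucose, and re-esterify fatty acids on glycerol phosphate, which they form from glucose or, through Pck1, from smaller precursors. When the depot grows, adipocytes enlarge within a collagen matrix, vessels extend, and macrophages clear dying adipocytes and lipid. In whole tissue, fewer cells of a type and less RNA per cell cannot be told apart, so every level below is a level in the tissue.

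The 6 libraries held 22.5 to 28.0 M reads each. The deposited table carried 21.1% to 22.2% of those reads, from the chromosomes 1, 2, 3 and X and part of 4, together 23.7% of annotated mouse genes. Values are reads per 1 M reads of the library (CPM). Of 13153 genes, 2093 had a mean of at least 10 CPM over the 6 libraries and were tested by limma on log2(CPM + 1), a scale that understates changes of low genes. Adjusted p (Benjamini-Hochberg over the genes tested) below 0.05 counts as a rise or a fall in DIO.

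Defining markers fitted the depot label in part. The adipocyte fatty acid carrier Fabp4 stood at 15502 to 17511 CPM in DIO libraries and 17789 to 20879 CPM in lean libraries. Tbx15, a transcription factor of subcutaneous preadipocytes, had 10.7, 10.3 and 11.0 CPM in DIO 1 to 3, against 15.9, 15.3 and 21.4 CPM in lean 1, 4 and 5, and fell (log2 change -0.65 ± 0.14 SE, adjusted p 0.00735), though not with all 8 subcutaneous libraries. In retroperitoneal fat it averaged 5.73 CPM in DIO and 5.33 CPM in lean libraries. Shox2, another marker of this depot, had 15.7, 25.0 and 38.0 CPM in DIO and 7.76, 16.7 and 27.4 CPM in lean libraries. Shox2 did not pass (change 0.65, adjusted p 0.257), and was at most 1.69 CPM in the retroperitoneal libraries. En1, also listed for the depot, was below the filter on level. Wt1, a gene of visceral fat and mesothelium, was at most 0.0890 CPM in all 6. Tnmd, a marker of mature adipocytes elsewhere, was at most 0.143 CPM here and near 0 in the other white depots too.

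Markers of lymphoid tissue set lean 2 and lean 3 apart. Cr2 was at 147 and 146 CPM in them and between 0.0715 and 0.712 CPM in the other 6. Cr2 chose the libraries, and the 6 other B cell markers summed to 11.9 to 16.1 CPM in DIO libraries, 7.51 to 10.6 CPM in lean 1, 4 and 5, and 429 and 556 CPM in lean 2 and lean 3. The 12 T cell markers summed to 31.5 to 48.1 CPM in DIO libraries, 15.8 to 25.6 CPM in lean 1, 4 and 5, and 530 and 842 CPM in lean 2 and lean 3. With those 2 libraries put back 274 genes passed in place of 972, and the count of each gene list with all 8 libraries is given below. The background for those counts is that, of the 2093 genes tested with 6 libraries, 194 rose and 79 fell with all 8.

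**Figure D1:**
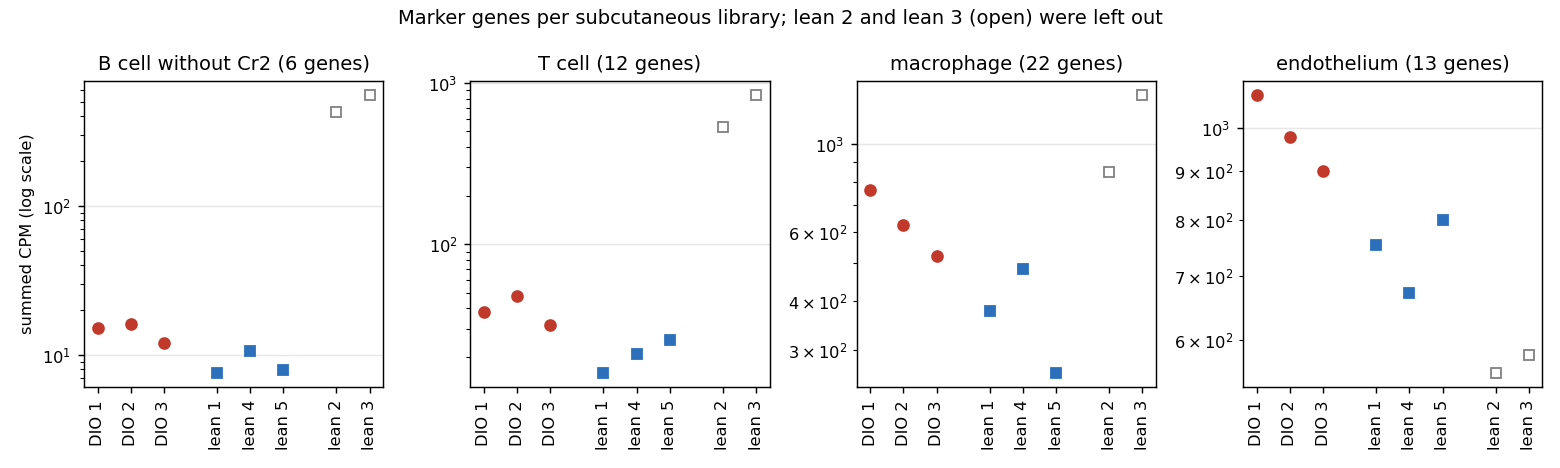
Summed CPM (log scale) of marker genes of 4 cell types in each subcutaneous library, with DIO libraries (red circles) left of lean libraries (blue squares) and the 2 left-out lean libraries (open squares) at the right. The B cell sum leaves out Cr2. B and T cell sums of lean 2 and lean 3 lie between 429 and 842 CPM, while no other library reaches 50 CPM; macrophage and endothelial sums of the 3 DIO libraries lie above those of lean 1, 4 and 5.

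In DIO fat 14 of 23 tested extracellular matrix genes, 6 of 11 endothelial genes and 7 of 13 macrophage genes rose, while 1 matrix gene and 2 endothelial genes fell. Falls were found in 13 of 17 respiratory chain genes and 2 of 3 fatty acid synthesis genes, with no rises. The same held for 9 of 10 genes in a list of branched-chain amino acid breakdown and transport, pyruvate dehydrogenase and the tricarboxylic acid cycle. In all, 972 of 2093 genes (46.4%) passed: 651 rose (31.1%) and 321 fell (15.3%). Of these, 96 rises and 44 falls were larger than 1 on the log2 scale. The DIO and lean libraries did not overlap for 1235 genes (59.0%), with DIO higher for 812 (38.8%) and lower for 423 (20.2%). The excess of rises depends on scaling: after rescaling each library by the median of ratios, 460 genes rose (22.0%) and 458 fell (21.9%), and the median log2 change of all genes was 0.00 in place of 0.10. Values were whole reads divided by depth, and on those reads (100% of values whole within 0.001 read) edgeR called 446 rises and 465 falls.

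**Figure D2:**
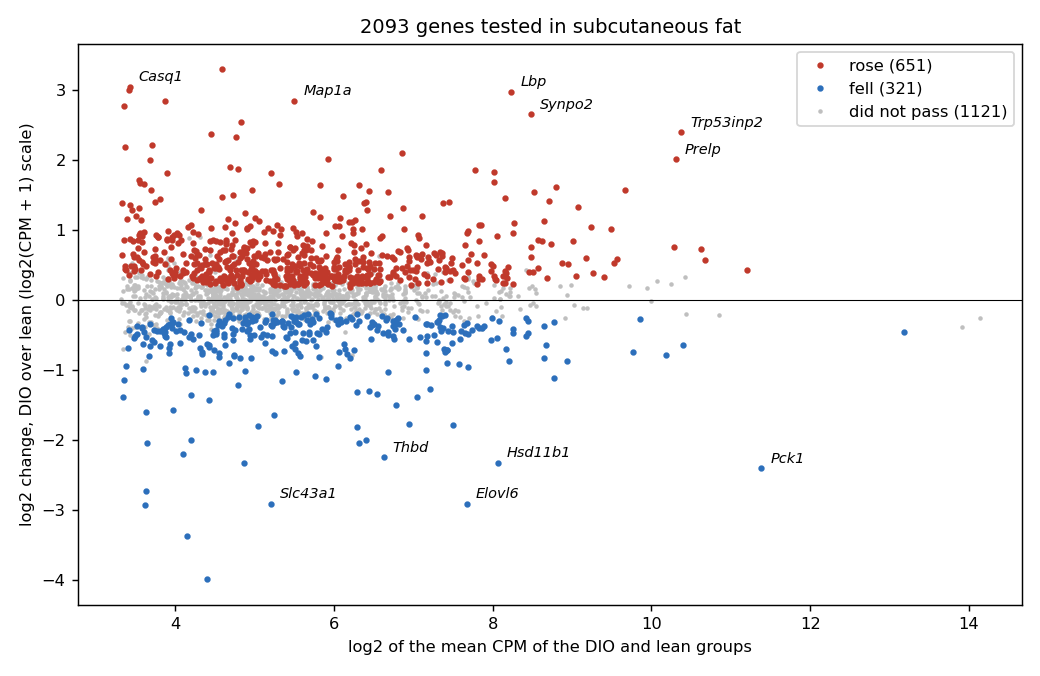
Log2 change of DIO over lean against the log2 of the mean CPM for the 2093 genes tested, one point per gene, in red for the 651 that rose, blue for the 321 that fell and grey for the rest. Lbp, Synpo2, Trp53inp2 and Prelp stand out at the top among genes of high level, and Pck1, Elovl6 and Hsd11b1 at the bottom.

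Lbp, the lipopolysaccharide-binding protein of the acute phase response, had the largest rise on the log2(CPM + 1) scale among genes whose groups did not overlap and whose higher group mean reached 50 CPM. It stood at 562, 488 and 539 CPM in DIO 1 to 3, against 114, 67.6 and 37.6 CPM in lean 1, 4 and 5, a 7.26-fold higher mean (log2 change 2.98 ± 0.33 SE, adjusted p 0.000463). Trp53inp2, a regulator of autophagy, had 2306, 2080 and 2289 CPM in DIO libraries, against 529.8, 481 and 291 CPM in lean libraries. Its change was 2.40 ± 0.21 (adjusted p 0.000177). For both genes every DIO library was several times above every lean library. Map1a, which stabilises microtubules, had 71.7, 72.8 and 95.6 CPM in DIO libraries and 15.5, 10.2 and 6.45 CPM in lean libraries (change 2.85 ± 0.26). The ratio of its means, 7.47, was above that of Lbp.

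Synpo2, an actin-bundling protein of smooth muscle, had 570.4, 581 and 673 CPM in DIO libraries and 179, 74.0 and 65.8 CPM in lean libraries, with lean 1 above the other two lean libraries. Its log2 change was 2.65 ± 0.33. Gpc1, a cell surface heparan sulfate proteoglycan, averaged 187 ± 20.3 CPM in DIO and 43.7 ± 10.4 CPM in lean libraries (SD, n = 3 each), and Prps1, an enzyme of nucleotide precursor synthesis, averaged 404 ± 12.7 CPM and 115 ± 24.4 CPM. Apln, which encodes the peptide hormone apelin, had 63.1, 64.8 and 45.1 CPM in DIO libraries and 11.1, 22.7 and 14.4 CPM in lean libraries. Ccn1, a secreted matricellular protein, averaged 60.6 ± 5.59 CPM in DIO and 18.6 ± 2.77 CPM in lean libraries. Fgf13, an intracellular relative of the fibroblast growth factors, had 153, 131 and 159 CPM in DIO libraries, against 80.0, 27.2 and 28.7 CPM in lean libraries, again with lean 1 nearest to DIO. The adaptor gene Bcar3 (change 1.68) and Ccdc9b (change 1.64) complete this group together with Thbs1, Prelp, Postn and Ctss, described below. Map1a overlaps Ppip5k1 on the opposite strand in GENCODE M21, and whether reads were counted by strand is not given in the sources used here.

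Slc43a1, a transporter of large neutral amino acids, and Elovl6, described below, had the largest falls by the same rule, both with a log2 change of -2.91. Slc43a1 stood at 7.30, 8.11 and 8.33 CPM in DIO 1 to 3, against 64.8, 61.0 and 72.5 CPM in lean 1, 4 and 5, an 8.35-fold lower mean in DIO (SE of the log2 change 0.09, adjusted p 3.45e-06). Replicates of both groups lay close together, and the value in lean 2 and lean 3 (35.5 and 30.3 CPM) was also above all DIO libraries. Pck1, which makes the glycerol precursor for fatty acid re-esterification, had 617, 1203 and 785 CPM in DIO libraries and 3797, 4159 and 5443 CPM in lean libraries. Its change was -2.40 ± 0.25 (adjusted p 0.000325). Hsd11b1, the enzyme that regenerates active glucocorticoid inside cells, had 84.1, 109 and 71.8 CPM in DIO libraries, against 544, 356 and 440.5 CPM in lean libraries (change -2.33 ± 0.19).

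Thbd, the endothelial anticoagulant thrombomodulin, averaged 33.6 ± 4.25 CPM in DIO and 164 ± 31.1 CPM in lean libraries (SD, n = 3 each). Lean 2 and lean 3, at 31.2 and 39.4 CPM, were as low as DIO, and with them the gene did not pass (adjusted p 0.194). The same held for Gsta3, Fgf2, Irs1 and Enpep, whose levels in lean 2 and lean 3 also lay near those in DIO. Fgf2, a fibroblast and endothelial growth factor, had 13.1, 15.5 and 13.7 CPM in DIO libraries, against 49.8, 57.5 and 47.8 CPM in lean 1, 4 and 5. Ptges, a prostaglandin E synthase, averaged 30.6 ± 4.72 CPM in DIO and 129 ± 19.2 CPM in lean libraries. Cp, the ferroxidase ceruloplasmin, averaged 81.4 ± 12.9 CPM and 279.7 ± 5.10 CPM, and S100a1, a calcium-binding protein, 55.4 ± 5.97 CPM and 192 ± 27.4 CPM in the same order. The cadherin Celsr2 (change -1.64), the DNA-binding protein gene Nabp1 (-1.38) and the aminopeptidase gene Enpep (-1.29) were also among the 15. Hsd11b1, Fgf2, Cp and Gpd2 each overlap another expressed gene on the opposite strand in GENCODE M21, and for Hsd11b1 that gene, Lamb3, rose. Besides the 15, 2 predicted genes met the rule for falls and are not named.

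**Figure D3:**
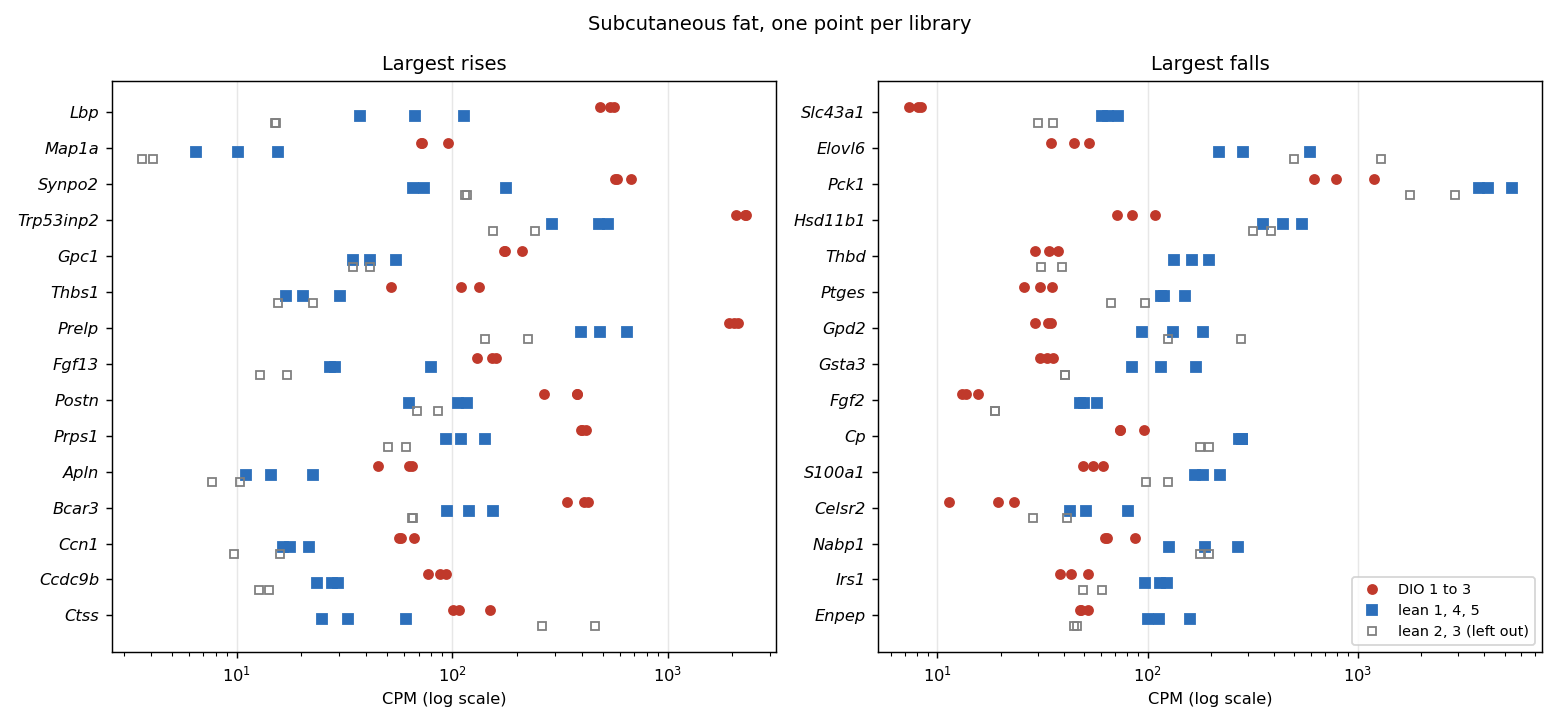
CPM (log scale) of the 15 largest rises (left) and 15 largest falls (right), one point per library, with DIO libraries as red circles, lean 1, 4 and 5 as blue squares and the left-out lean 2 and lean 3 as open squares. DIO circles and blue squares do not overlap for any gene, as the rule required; the open squares of Ctss lie above DIO, and those of Thbd, Gsta3, Irs1 and Enpep lie near DIO.

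Of 3 tested fatty acid synthesis genes 2 fell, where 15.3% of all genes fell, and both also passed with all 8 libraries. Elovl6, which elongates saturated and monounsaturated fatty acids, had 52.9, 34.6 and 44.6 CPM in DIO 1 to 3, against 219, 592 and 283 CPM in lean 1, 4 and 5. Its log2 change was -2.91 ± 0.34 SE (adjusted p 0.000529). Acss2, the enzyme that turns acetate into acetyl-CoA, had 312, 227 and 281 CPM in DIO libraries and 530.1, 821 and 462 CPM in lean libraries (change -1.11 ± 0.21, adjusted p 0.00461). In both genes all lean libraries were above all DIO libraries, lean 4 was the highest of the 3 lean libraries used, and lean 2 and lean 3 were also above DIO. Nr1h3, the oxysterol receptor LXR alpha, averaged 116 ± 2.92 CPM in DIO and 119 ± 8.08 CPM in lean libraries and did not pass (adjusted p 0.756). Fasn, Acaca, Acly, Scd1 and the other listed enzymes lie outside the genes analysed here. None of the 6 tested genes of cholesterol synthesis passed in the limma test; 2 had an unadjusted p under 0.05, the sterol dehydrogenase genes Nsdhl (change 0.64, adjusted p 0.0593) and Hsd17b7 (0.90, adjusted p 0.0599), and 0 of the 6 were called by edgeR and DESeq2. Nsdhl passed without DIO 2 (adjusted p 0.0473), and without lean 4 both passed (adjusted p 0.0127 for Nsdhl and 0.000711 for Hsd17b7).

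Genes of the mature adipocyte moved in both directions. Of the 16 in the table, 15 were tested, 5 rose and 4 fell, shares close to the 31.1% of rises and somewhat above the 15.3% of falls among all genes, and their median log2 change was 0.09 beside 0.10 for all genes. Lpgat1, an acyltransferase of phospholipid synthesis, had 1180, 1121 and 1355 CPM in DIO libraries, against 492, 399 and 342 CPM in lean libraries (change 1.58 ± 0.14 SE, adjusted p 0.000206). Cavin2, a coat protein of caveolae, averaged 909.7 ± 53.1 CPM in DIO and 608 ± 57.1 CPM in lean libraries, and Cobll1 90.3 ± 5.13 CPM and 63.3 ± 6.44 CPM. Acvr1c, the activin receptor ALK7 that restrains lipolysis, averaged 127 ± 16.2 CPM in DIO and 211 ± 12.2 CPM in lean libraries and fell (change -0.74, adjusted p 0.00130). Pck1 and Irs1 fell as well. Among all 8 libraries 4 of the 15 rose and 1 fell, and Cavin2, Acvr1c and Irs1 did not pass. Fabp4 (change -0.25, adjusted p 0.169) and Car3, an abundant carbonic anhydrase of adipocytes (change -0.39, adjusted p 0.0806), did not pass although their libraries did not overlap; Car3 passed after rescaling (adjusted p 0.0478).

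Of 17 tested respiratory chain and ATP synthase subunits, 13 fell and 0 rose, where 15.3% of all genes fell, and the median log2 change was -0.45 beside 0.10 for all genes. Ndufa1, a complex I subunit, had 52.3, 53.0 and 51.9 CPM in DIO 1 to 3, against 102, 76.5 and 105 CPM in lean 1, 4 and 5 (change -0.83 ± 0.12 SE, adjusted p 0.00140). Ndufb11 averaged 87.7 ± 4.70 CPM in DIO and 129 ± 7.21 CPM in lean libraries, and Ndufa10 138 ± 6.38 CPM and 189 ± 7.12 CPM. For these 3 complex I genes no DIO library reached a lean library. Ndufc1 (change -0.58) and the ATP synthase subunit gene Atp5e (-0.50) fell too, as did the complex IV subunit genes Cox5b and Cox7b and the complex II gene Sdhc. Ndufs1, Ndufb3, Ndufa8 and Atp5f1 did not pass, with changes of -0.29, -0.15, -0.12 and -0.22. Cox4i2, an isoform of complex IV tied to low oxygen, was below the filter on level, at 4.17, 5.08 and 4.96 CPM in DIO and 0.894, 2.74 and 2.05 CPM in lean libraries, and rose in the fit without that filter (change 1.04 ± 0.27 SE, adjusted p 0.0300). In that fit 12 of the 18 subunits fell and 1 rose. After rescaling 15 of 17 fell (21.9% of all genes), and with all 8 libraries 6 fell, where 79 of the 2093 genes did.

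A set of 10 genes was known from the series to vary between libraries. Its log2 index is the mean of a first group, with Ndufc1 and Atp5e, less that of a second, with S100a1. The index was 0.40, 0.22 and 0.28 in DIO 1 to 3 and 0.67, 0.16 and 0.32 in lean 1, 4 and 5. DIO and lean libraries thus overlapped in it. With the index as a covariate 15 of the 17 respiratory chain genes fell. Ndufc1 and Atp5e are themselves among the 17, and S100a1 fell in DIO, so this fit is no independent check of those falls.

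A list of branched-chain amino acid breakdown and the tricarboxylic acid cycle held 10 genes, all tested. It also held the transporter gene Slc43a1, the pyruvate dehydrogenase genes Pdha1 and Pdhx, and the cytosolic Idh1. Of the 10 genes 9 fell and 0 rose (15.3% of all genes fell), with a median log2 change of -0.46. Slc43a1, described above, is among the 9 and was tested through the lean group. Without the filter on level 9 of 10 fell too (6.43% of all genes). Ivd, which oxidises isovaleryl-CoA from leucine, had 183, 232 and 214 CPM in DIO libraries, against 352, 365 and 431 CPM in lean libraries (change -0.87 ± 0.12 SE, adjusted p 0.00107). Pdha1, the catalytic subunit of pyruvate dehydrogenase, averaged 344 ± 16.5 CPM in DIO and 640.3 ± 142 CPM in lean libraries. Mccc1, Hibch and Dbt, enzymes of leucine, valine and general branched-chain ketoacid breakdown, fell by 0.49, 0.44 and 0.47 on the log2 scale. Their DIO and lean libraries did not overlap. Idh1, the cytosolic isocitrate dehydrogenase, averaged 386 ± 11.9 CPM in DIO and 359 ± 16.4 CPM in lean libraries and did not pass. With all 8 libraries 2 of the 10 fell, where 79 of the 2093 genes did.

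Fatty acid oxidation genes did not share a direction. Of 10 tested, 2 rose and 2 fell (31.1% and 15.3% of all genes), with a median of 0.12 beside 0.10 for all genes, and with all 8 libraries none passed. Hsd17b10, a mitochondrial dehydrogenase of isoleucine and fatty acid breakdown, averaged 53.3 ± 2.15 CPM in DIO and 87.6 ± 8.66 CPM in lean libraries (change -0.70 ± 0.09 SE, adjusted p 0.000798), and Crat, carnitine acetyltransferase, 282 ± 2.89 CPM and 404 ± 38.4 CPM. The rises of Acadm (0.39), the medium-chain acyl-CoA dehydrogenase, and Abcd3 (0.25), a peroxisomal transporter, did not pass after rescaling, nor without any 1 of DIO 1, DIO 2, DIO 3, lean 1 or lean 5.

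Among genes of glucose metabolism and insulin signalling 5 of 15 tested rose and 4 fell, shares near to or somewhat above the 31.1% and 15.3% of all genes, with a median of 0.09. Of these 0 rises and 2 falls, those of Gpd2 and Pdk1, also passed with all 8 libraries. Irs1, the insulin receptor substrate, had 43.4, 52.2 and 38.4 CPM in DIO libraries, against 115, 123 and 97.8 CPM in lean 1, 4 and 5 (change -1.31 ± 0.13 SE, adjusted p 0.000269). Gpd2, the mitochondrial glycerol phosphate dehydrogenase, had 29.1, 34.6 and 33.5 CPM in DIO libraries and 93.8, 184 and 133 CPM in lean libraries (change -1.99 ± 0.21). Pdk1, a kinase that switches off pyruvate dehydrogenase, averaged 37.0 ± 3.41 CPM in DIO and 82.4 ± 12.3 CPM in lean libraries. Rises were smaller: Grb14, an inhibitor of the insulin receptor, averaged 100.5 ± 16.0 CPM in DIO and 64.8 ± 10.4 CPM in lean libraries, and Ptpn1, the phosphatase that acts on that receptor, 48.7 ± 5.14 CPM and 36.1 ± 1.12 CPM. Ptpn1 was higher in lean 2 and lean 3 than in DIO, and with all 8 libraries it did not pass.

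Of 29 extracellular matrix genes in the table, 23 were tested, with 14 rises and 1 fall (31.1% and 15.3% of all genes) and a median log2 change of 0.57 beside 0.10 for all genes. Without the filter on level 14 of all 29 rose and 1 fell, where 13.5% of all 6459 genes rose and 6.43% fell. Prelp, a leucine-rich proteoglycan that binds collagen, had 2114, 1938 and 2028 CPM in DIO 1 to 3, against 647, 488 and 397 CPM in lean 1, 4 and 5 (change 2.01 ± 0.17 SE, adjusted p 0.000174). Bgn, the proteoglycan biglycan, had 468, 443 and 349 CPM in DIO libraries and 152, 169.9 and 135 CPM in lean libraries (change 1.45 ± 0.13). Col6a3, a chain of the collagen that surrounds adipocytes, had 692, 524 and 617 CPM in DIO libraries, against 243, 245 and 197 CPM in lean libraries (change 1.41 ± 0.13, adjusted p 0.000209). Every DIO library was above every lean library for these 3 genes.

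Postn, the matricellular protein periostin, had 379.9, 379.5 and 268 CPM in DIO libraries and 63.4, 107 and 118 CPM in lean libraries. Thbs1, thrombospondin, had 133, 110.3 and 52.4 CPM in DIO libraries and 20.4, 30.3 and 17.0 CPM in lean libraries, with DIO 3 the lowest of the DIO group. Lama5, a laminin chain of basement membranes, had 113, 91.4 and 96.0 CPM in DIO libraries and 49.2, 37.6 and 49.8 CPM in lean libraries, and Srpx2, a secreted protein of the matrix, averaged 89.8 ± 7.40 CPM in DIO and 47.1 ± 5.38 CPM in lean libraries. Fn1, fibronectin, was even between DIO libraries (155, 160.4 and 153 CPM) but uneven between lean libraries (167, 426 and 75.0 CPM), and did not pass (adjusted p 0.818). The fall was that of Mmp9, a gelatinase, at 5.71, 9.20 and 3.45 CPM in DIO libraries and 18.3, 15.4 and 9.34 CPM in lean libraries; it was tested through the lean group and did not pass without DIO 1 or DIO 3. With all 8 libraries 9 matrix genes rose, where 194 of the 2093 genes did.

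Of 10 tested genes of TGF-beta and BMP signalling 5 rose and 2 fell (31.1% and 15.3% of all genes), and 3 rose after rescaling (22.0% of all genes). The rises of Pmepa1 and the co-receptor gene Eng were the 2 that also passed with all 8 libraries, where 0 fell. Pmepa1, a feedback inhibitor induced by TGF-beta, had 723, 592 and 705 CPM in DIO libraries, against 243, 233 and 182 CPM in lean libraries (change 1.62 ± 0.13 SE, adjusted p 0.000168). Skil, a repressor of the same pathway, averaged 35.2 ± 5.03 CPM in DIO and 17.6 ± 1.18 CPM in lean libraries. The type II receptor gene Bmpr2 (change 0.33) and Inhbb, a subunit of activin B (0.37), did not pass after rescaling, nor without DIO 2 or DIO 3; Bmpr2 also did not pass without DIO 1, nor Inhbb without lean 4. Chrdl1, a secreted BMP antagonist, fell by 0.41 on the log2 scale (adjusted p 0.0377), and did not pass without any 1 of DIO 1, DIO 2, DIO 3, lean 1 or lean 4. Stromal progenitor genes did not share a direction: of 7 tested 2 rose and 2 fell, and with all 8 libraries 2 rose and 1 fell. Mme, the endopeptidase neprilysin, had 275, 270.5 and 269 CPM in DIO libraries and 120.3, 149 and 149 CPM in lean libraries and rose (change 0.96 ± 0.10), as did Fap, a fibroblast protease (28.3 ± 2.76 CPM in DIO and 15.2 ± 0.873 CPM in lean libraries). Dpp4, a marker of interstitial progenitors, had 4.26, 6.70 and 4.50 CPM in DIO libraries, against 29.1, 58.8 and 6.99 CPM in lean libraries, and the actin-severing protein gene Gsn averaged 7877 ± 1091 CPM in DIO and 10764 ± 825 CPM in lean libraries. Both of these falls passed (adjusted p 0.0337 and 0.0365), with Dpp4 tested through the lean group. Dpp4 did not pass without any 1 of DIO 1, DIO 2, DIO 3, lean 1 or lean 4, nor Gsn without any 1 of DIO 1, DIO 2, DIO 3, lean 4 or lean 5. In the fit without the filter on level neither passed. There 2 of 9 stromal genes rose and 1 fell (13.5% and 6.43% of all genes), the fall being Sfrp2 (change -2.15 ± 0.30 SE, adjusted p 0.00214).

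Endothelial markers rose in part, with 2 falls. Of the 13 genes measured, 11 were tested, with 6 rises and 2 falls (31.1% and 15.3% of all genes) and a median log2 change of 0.65. Without the filter on level 6 of 13 rose and 1 fell (13.5% and 6.43% of all genes). Cd93, a receptor of sprouting endothelium, had 275, 247 and 200.2 CPM in DIO 1 to 3, against 80.2, 101 and 91.1 CPM in lean 1, 4 and 5 (change 1.39 ± 0.13 SE, adjusted p 0.000229). Dll4, the Notch ligand of tip cells, averaged 54.0 ± 3.48 CPM in DIO and 26.4 ± 4.54 CPM in lean libraries (change 1.02 ± 0.13). Eng, a TGF-beta co-receptor, averaged 181 ± 21.3 CPM in DIO and 104 ± 6.52 CPM in lean libraries, and the lipid receptor gene S1pr1 119 ± 12.3 CPM and 75.8 ± 9.96 CPM. The falls were those of Thbd, described above, and of Procr, its partner in protein C activation, at 10.1, 10.2 and 11.0 CPM in DIO libraries, against 23.4, 38.7 and 12.5 CPM in lean libraries. Procr did not pass without any 1 of DIO 1, DIO 2, DIO 3, lean 1 or lean 4. With all 8 libraries 3 endothelial genes rose and 0 fell.

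Of 6 mural and smooth muscle markers 4 were tested and 3 rose, among them Synpo2 (31.1% of all genes rose), all 3 also with all 8 libraries; without the filter on level 2 of 6 rose (13.5%). Rgs5, a marker of pericytes, had 403, 567 and 531 CPM in DIO libraries and 193, 266 and 409 CPM in lean libraries, where lean 5 was above DIO 1, and passed narrowly (adjusted p 0.0305). It did not pass without any 1 of DIO 2, DIO 3, lean 1 or lean 4, nor by edgeR. Nexn, an actin-binding protein of smooth muscle, averaged 20.0 ± 1.55 CPM in DIO and 6.99 ± 1.31 CPM in lean libraries. It was tested through the DIO group. Des, a muscle intermediate filament gene, did not pass (change 0.28).

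Macrophage markers rose unevenly. Of the 22 genes measured, 13 were tested and 7 rose (31.1% of all genes rose), but 4 of the 13, among them Atp6v0d2, Cd84 and Spi1, had under 10 CPM in the lean mean, so they were tested through the DIO group. Without the filter on level 10 of all 22 rose and 0 fell, with a median log2 change of 0.71 beside 0.02 for all 6459 genes and a background of 13.5% rises. The 22 genes summed to 765, 622 and 519 CPM in DIO 1 to 3, against 376, 482 and 262 CPM in lean 1, 4 and 5, and to 848 and 1335 CPM in lean 2 and lean 3. Ctss, a lysosomal protease of antigen-presenting cells, had 149.6, 108 and 101 CPM in DIO libraries and 32.9, 61.4 and 25.0 CPM in lean libraries (change 1.64 ± 0.30 SE, adjusted p 0.00378). Atp6v0d2, a proton pump subunit of lipid-laden macrophages, had 44.2, 19.9 and 15.6 CPM in DIO libraries and 1.64, 5.22 and 1.60 CPM in lean libraries (change 2.84 ± 0.45, adjusted p 0.00204). Cybb, the catalytic subunit of the phagocyte oxidase, averaged 39.1 ± 4.09 CPM in DIO and 14.1 ± 7.35 CPM in lean libraries.

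For these genes DIO 1 was the highest of the DIO libraries and lean 4 the highest of the lean libraries. Cd84, an adhesion receptor of leukocytes, averaged 23.7 ± 6.74 CPM in DIO and 6.15 ± 2.65 CPM in lean libraries, and Spi1, the myeloid transcription factor PU.1, 16.7 ± 3.33 CPM and 6.99 ± 1.35 CPM. Of the 13 tested macrophage genes 6 did not pass, among them Mrc1 and Siglec1, which are expressed by resident macrophages. Mrc1, the mannose receptor, averaged 86.6 ± 12.3 CPM in DIO and 76.8 ± 31.2 CPM in lean libraries, and Siglec1 28.4 ± 8.53 CPM and 33.2 ± 5.35 CPM. Their signs turned without 1 library, Mrc1 without lean 5 (change -0.067) and Siglec1 without DIO 3 (0.0043). Il1b was at most 0.646 CPM in the 6 libraries and rose in the fit without the filter (change 0.39 ± 0.089 SE, adjusted p 0.0171). With all 8 libraries 1 macrophage gene rose, and lean 2 and lean 3 had more Ctss (262 and 462 CPM), Cybb, Cd84 and Spi1 than DIO.

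Among 7 tested complement and acute phase genes 2 rose (31.1% of all genes) and 0 fell, and both rises also passed with all 8 libraries. Besides Lbp this was Cd59a, which blocks the membrane attack complex, at 339, 363 and 337 CPM in DIO libraries, against 200.5, 179 and 170.0 CPM in lean libraries (change 0.92 ± 0.09 SE, adjusted p 0.000218). Interferon response genes did not share a direction: 2 of 12 rose and 2 fell (31.1% and 15.3% of all genes), with a median of 0.07 beside 0.10 for all genes, and with all 8 libraries none passed. B2m, the light chain of MHC class I, averaged 2711 ± 145 CPM in DIO and 2019 ± 282 CPM in lean libraries, and the editing enzyme gene Adar 38.9 ± 0.845 CPM and 31.8 ± 2.13 CPM, and neither rise passed after rescaling. Adar also did not pass without DIO 1 or DIO 2, nor B2m without any 1 of DIO 1, DIO 2, DIO 3, lean 4 or lean 5. Ifi204 and Ifi205, interferon-inducible members of a family of near-identical copies whose reads may be split between them, averaged 19.0 ± 2.75 CPM and 14.5 ± 0.606 CPM in DIO and 27.0 ± 4.00 CPM and 21.6 ± 3.91 CPM in lean libraries. Ifi204 did not pass without any 1 of DIO 1, DIO 3, lean 1 or lean 4.

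Cell cycle genes were low in both groups. Of 20 in the table only Smc4, Mcm6 and Pcna reached the filter on level, and without the filter 18 of 20 rose and 0 fell (13.5% and 6.43% of all 6459 genes), with a median log2 change of 1.24 beside 0.02 for all genes. The 20 genes summed to 223, 207 and 192 CPM in DIO 1 to 3, against 86.2, 104 and 109 CPM in lean 1, 4 and 5. For 19 of the 20 all DIO libraries were above all lean libraries, as for 38.8% of the 2093 genes above the filter. Ccna2, a cyclin of S phase and mitosis, had 13.5, 12.1 and 10.5 CPM in DIO libraries, against 1.61, 2.82 and 2.40 CPM in lean libraries. Tpx2, a spindle assembly factor, had 10.2, 9.93 and 7.58 CPM in DIO libraries and 1.07, 1.66 and 1.42 CPM in lean libraries. Smc4, a condensin subunit, averaged 40.8 ± 3.19 CPM in DIO and 22.5 ± 3.99 CPM in lean libraries (adjusted p 0.00166). Pcna did not pass after rescaling or without DIO 1 or DIO 3. The summed levels of macrophage, B cell and T cell markers were also higher in all 3 DIO libraries than in lean 1, 4 and 5, and their part in the cell cycle values was not tested. In lean 2 and lean 3 the 20 genes summed to 345 and 567.6 CPM, and with all 8 libraries none of the 3 genes tested rose by limma.

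**Figure D4:**
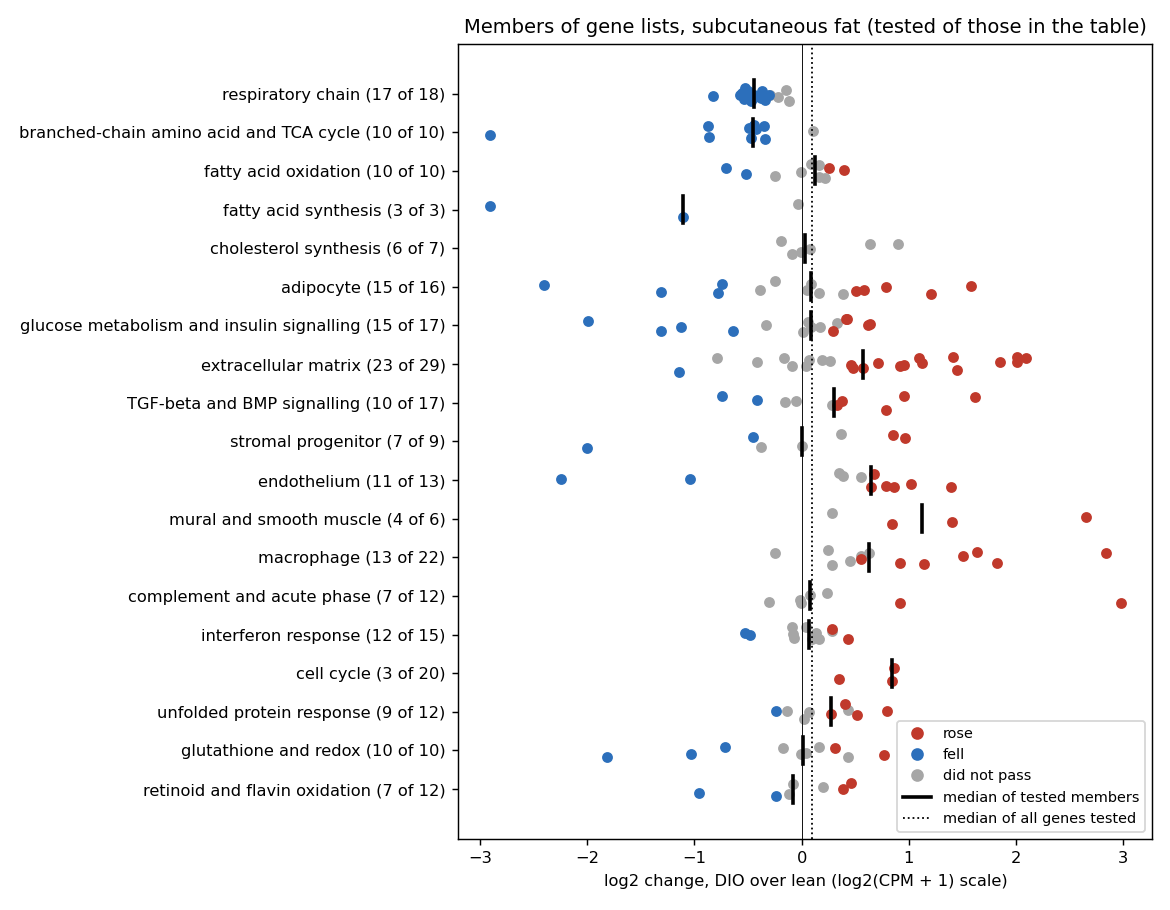
Log2 change of DIO over lean for the tested members of 19 gene lists, one point per gene, in red for rises, blue for falls and grey for genes that did not pass, with the median of each list as a black bar and the median of all genes tested (0.10) as a dotted line. Respiratory chain genes and all genes of the branched-chain amino acid and tricarboxylic acid cycle list but Idh1 lie left of zero, and matrix, endothelial, mural and macrophage genes lie mostly right of it, with single genes such as Thbd on the other side.

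Stress and detoxification genes moved in both directions. Of 9 tested genes of the unfolded protein response 4 rose and 1 fell (31.1% and 15.3% of all genes). After rescaling 3 rose (22.0% of all genes), and with all 8 libraries 2 rose, Hspa5 and Dnajb4. Dnajb4, a chaperone partner, averaged 108 ± 4.08 CPM in DIO and 61.7 ± 4.25 CPM in lean libraries (change 0.80 ± 0.08 SE, adjusted p 0.000233), Hspa5, the main chaperone of the endoplasmic reticulum, 582 ± 50.9 CPM and 407 ± 39.8 CPM, and its sensor Atf6 65.1 ± 3.29 CPM and 49.3 ± 6.00 CPM. The rise of the disulfide reductase gene Dnajc10 (0.27) did not pass after rescaling, and the mitochondrial cochaperone gene Hspe1 fell by 0.24. Without DIO 3 Atf6, Dnajc10 and Hspe1 did not pass; Dnajc10 and Hspe1 also did not pass without DIO 2 or lean 1, nor Dnajc10 without DIO 1 or Hspe1 without lean 5. Without the filter on level 6 of the 12 genes rose and 0 fell (13.5% and 6.43% of all genes). Of 10 glutathione and redox genes 2 rose and 3 fell, where 31.1% and 15.3% of all genes did. Gsta3, a glutathione transferase, had 30.7, 35.4 and 33.3 CPM in DIO libraries, against 171, 116 and 84.7 CPM in lean 1, 4 and 5 (change -1.82 ± 0.22). Sqor, which oxidises hydrogen sulfide, averaged 67.4 ± 10.3 CPM in DIO and 138 ± 14.4 CPM in lean libraries, and Gstm1, which has close paralogs, 130.1 ± 12.9 CPM and 215 ± 29.0 CPM. Cth, which makes cysteine, rose (19.8 ± 2.55 CPM in DIO and 11.2 ± 1.45 CPM in lean libraries), and so did Gss, glutathione synthetase, by 0.31, though Gss overlaps Acss2 and did not pass after rescaling or without DIO 2 or DIO 3. With all 8 libraries none of the redox genes passed.

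Of 7 tested genes of retinoid and flavin oxidation 2 rose and 2 fell (31.1% and 15.3% of all genes), and with all 8 libraries none passed. Fmo1, a flavin monooxygenase, had 137, 154 and 130.2 CPM in DIO libraries, against 282, 257 and 282 CPM in lean libraries and fell (change -0.96 ± 0.09 SE, adjusted p 0.000206), while Fmo2 rose (43.8, 49.7 and 45.8 CPM in DIO libraries and 31.2, 33.5 and 35.8 CPM in lean libraries) and so did Aox1, an aldehyde oxidase (209 ± 7.66 CPM and 159 ± 6.35 CPM in the same order). Rxrg, a retinoid X receptor, fell by 0.24 (adjusted p 0.0485) and did not pass without any 1 of DIO 1, DIO 2, DIO 3, lean 1 or lean 4.

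Markers of skeletal muscle and of skin and hair were mostly near 0, while those of nerve were not. The 5 Schwann cell and nerve markers summed to 181, 16.7 and 30.5 CPM in DIO 1 to 3. In lean 1, 4 and 5 they summed to 89.6, 60.7 and 82.8 CPM. Of these markers 2 were tested and 0 passed, but without DIO 1, the highest library, 2 fell. Of 12 skeletal muscle markers only Casq1, a calcium store protein, reached the filter, at 29.3, 14.3 and 16.4 CPM in DIO libraries and 2.11, 0.995 and 1.29 CPM in lean libraries, and rose (adjusted p 0.000298). It was tested through the DIO group and could not be tested without DIO 1 or DIO 3, nor with all 8 libraries, where it was below the filter. Ttn and Ampd1, which define muscle fibres, were at most 0.250 and 0.0404 CPM in these 6 libraries, and Myoz2 was at 0 in all 6. Without the filter on level 4 of 11 muscle genes rose and 1 fell, where 13.5% and 6.43% of all genes did. Besides Casq1 the rises were those of Xirp2 (change 1.03), Neb (0.90) and Chrna1 (0.29), and the fall that of Tnnc2 (-0.94). The 12 genes summed to 20.7 to 35.8 CPM in DIO and 4.58 to 6.83 CPM in lean libraries, and Casq1 made up most of each DIO sum but not of the lean sums. Of 10 skin and hair markers 7 had at most 0.0890 CPM in each of the 6 libraries, and Lamb3, an epithelial laminin chain that overlaps Hsd11b1, rose (19.0 ± 0.131 CPM in DIO and 5.38 ± 1.03 CPM in lean libraries), also tested through the DIO group.

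The same diet effect was set against that in 3 other white depots by an interaction test in limma. Epididymal and retroperitoneal fat had 5 DIO and 5 lean libraries each, and mesenteric fat 3 and 3 after 1 DIO library with 269 CPM of Cr2 was left out. Labels do not say which libraries came from the same mouse. On simulated data the test found 62.7% of 2-fold differences against epididymal, 53.7% against retroperitoneal and 92.5% against mesenteric fat. The counts of genes that differed are therefore not comparable between depots, and a gene that did not pass may still differ. Of the 13 macrophage genes tested in subcutaneous fat, 12 changed less there than in epididymal fat, 12 less than in retroperitoneal fat and 10 less than in mesenteric fat, and 0 changed more in any of the 3. Among all genes 16.5%, 6.04% and 29.0% had a lower change in subcutaneous fat in the same order. The median change of the 13 was 0.63 in subcutaneous, 3.41 in epididymal, 2.94 in retroperitoneal and 1.89 in mesenteric fat. After rescaling the counts were 12, 11 and 5.

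Against epididymal fat the diet effect differed for 553 of 2147 genes (25.8%), with the subcutaneous change above the epididymal one for 199 (9.27%) and below it for 354; after rescaling 27.5% differed, 13.1% above and 14.4% below. Ctsk, a collagen-degrading cathepsin, had 81.8, 69.0 and 56.8 CPM in subcutaneous DIO and 46.2, 53.2 and 48.7 CPM in subcutaneous lean libraries. In epididymal fat it had 632, 265, 506, 429 and 287 CPM in DIO and 9.52, 14.7, 15.2, 9.78 and 12.3 CPM in lean libraries. The subcutaneous change was lower by 4.48 on the log2 scale (difference -4.48 ± 0.34 SE, adjusted p 7.43e-07). Prrx1, a transcription factor of mesenchymal progenitors, averaged 52.6 ± 9.84 CPM in DIO and 52.1 ± 3.26 CPM in lean subcutaneous fat, and 113 ± 25.4 CPM in DIO and 19.8 ± 2.29 CPM in lean epididymal fat (difference -2.43 ± 0.24). Zranb3, a DNA repair translocase, averaged 7.67 ± 4.46 CPM in DIO and 3.27 ± 0.745 CPM in lean subcutaneous fat, against 94.0 ± 16.8 CPM and 3.65 ± 0.943 CPM in epididymal fat (difference -3.44 ± 0.37). Only its epididymal DIO mean reached 10 CPM, so Zranb3 was tested through that group. Rassf2, a tumour suppressor scaffold, differed by -1.93 ± 0.24 (adjusted p 0.000193).

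Against epididymal fat, endothelial and adipocyte genes differed mostly the other way. Among all genes 9.27% had a higher and 16.5% a lower change in subcutaneous than in epididymal fat. Of 11 endothelial genes 7 had a higher change in subcutaneous than in epididymal fat and 1 a lower one, with medians of 0.65 and -0.61. Of 15 adipocyte genes 7 had a higher change in subcutaneous fat and 0 a lower one, with medians of 0.09 and -0.96. Against retroperitoneal fat 0 of the 11 endothelial genes passed, and 1 of the 15 adipocyte genes had a higher and 0 a lower change (0.609% and 6.04% of all genes). Against mesenteric fat 0 endothelial genes had a higher and 2 a lower subcutaneous change, 1 lower after rescaling. Adipocyte genes there had 2 higher and 3 lower changes, 2 and 1 after rescaling. Among all genes 4.64% had a higher and 29.0% a lower change against mesenteric fat, and 10.7% and 7.26% after rescaling. Of 17 respiratory chain genes 0 passed by limma against epididymal fat, with medians of -0.45 in subcutaneous and -0.54 in epididymal fat, and 1 passed after rescaling. Against retroperitoneal fat 0 passed. Against mesenteric fat 1 had a higher subcutaneous change, and 6 did after rescaling (4.64% and 10.7% of all genes). All 3 fatty acid synthesis genes stayed short of the threshold against epididymal fat, with medians of -1.11 in subcutaneous and -2.18 in epididymal fat. Against retroperitoneal fat 1 of the 3 had a higher subcutaneous change (0.609% of all genes), and against mesenteric fat 2 did (4.64%). Their medians were -2.49 in retroperitoneal and -2.96 in mesenteric fat. These counts were the same after rescaling.

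Against retroperitoneal fat 142 of 2134 genes (6.65%) differed, 0.609% with a higher subcutaneous change. After rescaling 6.75% did, 1.92% higher and 4.83% lower. These included Zranb3 (difference -3.26 ± 0.40 SE, adjusted p 0.000532), Ctsk (-3.04 ± 0.40, adjusted p 0.000532), Uap1l1, a relative of a nucleotide sugar enzyme (-1.97 ± 0.25), and Sirpa, the macrophage receptor for CD47 (-2.38 ± 0.32). Zranb3 was tested here through the retroperitoneal DIO group. Sirpa had 126, 98.1 and 84.4 CPM in subcutaneous DIO and 80.8, 86.6 and 57.5 CPM in subcutaneous lean libraries, whereas its retroperitoneal means were 571 ± 203 CPM in DIO and 75.9 ± 6.74 CPM in lean libraries (SD, n = 5 each). Of the 23 matrix genes 1 passed, with a higher subcutaneous change, and 2 did after rescaling. Against epididymal fat 4 of 22 matrix genes had a higher and 6 a lower subcutaneous change (9.27% and 16.5% of all genes). After rescaling these counts were 5 and 5. Against mesenteric fat 0 of 22 had a higher and 6 a lower change (4.64% and 29.0% of all genes), with 3 lower after rescaling.

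Against mesenteric fat 719 of 2135 genes (33.7%) differed, 620 (29.0%) with a lower and 4.64% with a higher subcutaneous change. After rescaling 383 did (17.9%), 155 lower (7.26%) and 228 higher (10.7%), and the median change of all genes before rescaling was 0.10 in subcutaneous and 0.34 in mesenteric fat. Ctsk again differed (-2.68 ± 0.19 SE, adjusted p 3.06e-05). Hsd17b12, an enzyme of long-chain fatty acid elongation, was level in subcutaneous fat (364 ± 31.4 CPM in DIO and 385 ± 17.0 CPM in lean libraries), against 227 ± 8.81 CPM in DIO and 537 ± 20.3 CPM in lean mesenteric fat (difference 1.15 ± 0.11). Fgf2 fell in subcutaneous fat, against 39.1 ± 6.12 CPM in DIO and 46.6 ± 4.82 CPM in lean mesenteric fat (difference -1.55 ± 0.17, adjusted p 0.000641). Pid1, a phosphotyrosine-binding protein that dampens insulin signalling, differed by -1.27 ± 0.14. With all libraries of both depots 142 genes passed, and Ctsk, Fgf2 and Pid1 were not among them.

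**Figure D5:**
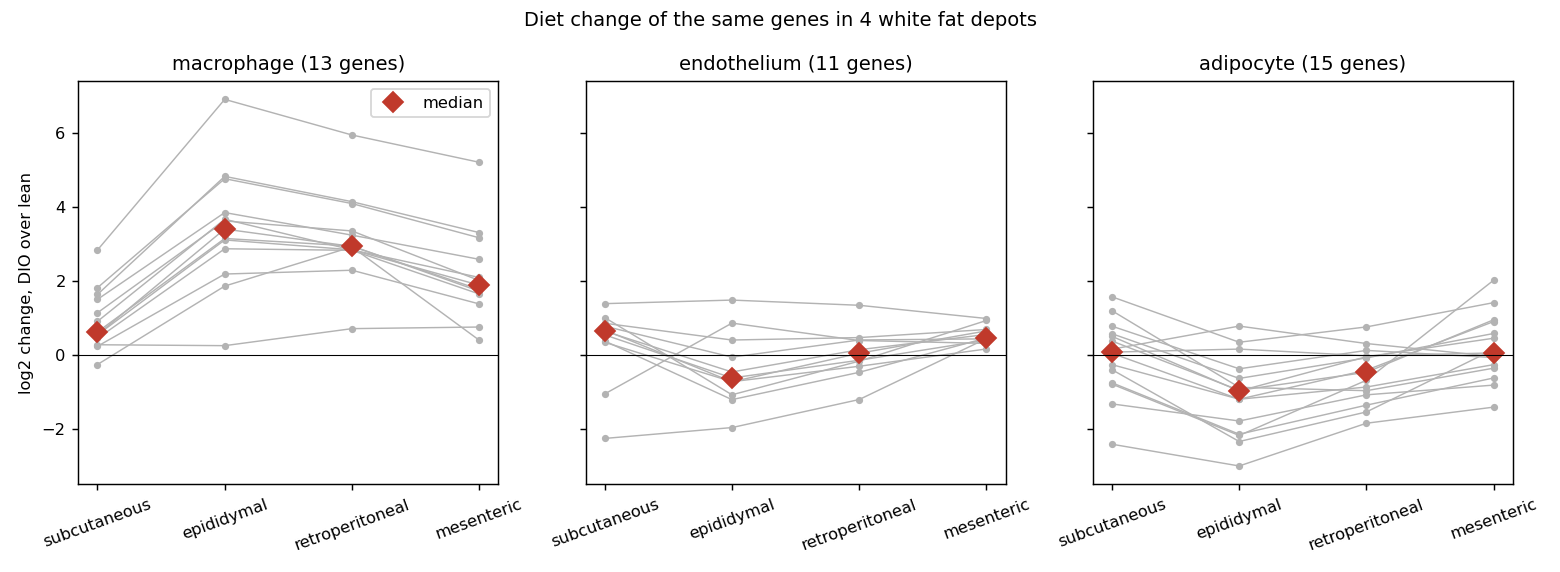
Log2 change of DIO over lean in 4 white fat depots, subcutaneous fat at the left, for the macrophage, endothelial and adipocyte genes tested in subcutaneous fat (one grey line per gene, the median as a red diamond). The macrophage median is 0.63 in subcutaneous and 3.41 in epididymal fat, and the endothelial and adipocyte medians are higher in subcutaneous than in epididymal fat.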

How the data were processed

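RNA sequencing libraries were made with a stranded mRNA kit and read in pairs, per the labels' protocols. FastQC, STAR, HTSeq and DESeq2 are named in the submitters' processing notes, but no version, build or counting setting is. The authors deposited CPM, and 100% of values were whole reads within 0.001 read. Gene names came from GENCODE M21 (13139 of 13153 identifiers). Lists were counted in full, with no set test.

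Genes averaging 10 CPM or more were tested for DIO against lean on log2(CPM + 1) by limma, whose prior variance followed mean level, with Benjamini-Hochberg adjustment and a threshold of 0.05; depots were compared by an interaction term. Tried besides were a pseudocount of 5, all genes with no filter, rescaling, edgeR and DESeq2 on the reads, all 8 libraries, a covariate of 10 genes, and each library left out. Named were the 15 largest rises and falls whose groups did not overlap and whose higher mean reached 50 CPM, up to 6 genes per list by lowest p with members that did not pass as values, and 4 genes per interaction; Cox5b, Cox7b, Sdhc, Cox4i2 and a few other values fall outside this rule and were picked after their values were seen. The left-out libraries, members and 29 lists were chosen with earlier results of these data known. No pair of replicates agreed within sampling noise. Tested on simulated data with known answers, the subcutaneous fit found 70.1% of genes with a 1.5-fold change. The interaction fits found 14.9%, 13.4% and 44.8% of 1.5-fold differences against epididymal, retroperitoneal and mesenteric fat. With 3 libraries a group, an exact permutation test of 1 gene cannot go below p = 0.1. Versions were R 4.3.3, limma 3.58.1, edgeR 4.0.16 and DESeq2 1.42.0. A single deposited column (1) belonged to no sample and was not used, and 1 gene with missing values was dropped. Some genes that met the naming rule are not reported here.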

Additional observations from a re-analysis of the deposited data

Results flagged for a closer look

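The diet effect differed between subcutaneous fat and another depot, by a test of the difference itself, for 12 pairs of gene and depot named by the rule. Against epididymal fat the subcutaneous change was lower by log2 differences of -4.48 for Ctsk, -2.43 for Prrx1, -3.44 for Zranb3 and -1.93 for Rassf2. Against retroperitoneal fat it was lower for Zranb3 (-3.26), Uap1l1 (-1.97), Ctsk (-3.04) and Sirpa (-2.38). Zranb3 was tested against these depots through their DIO groups, as no other group mean reached 10 CPM. Against mesenteric fat it was lower for Ctsk (-2.68), Fgf2 (-1.55) and Pid1 (-1.27), and higher for Hsd17b12 (1.15). Each of the 12 passed after rescaling and with any 1 subcutaneous library left out.

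Cr2 was at 147 CPM in lean 2 and 146 CPM in lean 3, against at most 0.712 CPM in the 6 libraries used. Those 2 subcutaneous libraries enter only the fits with all libraries.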

How the results depend on the processing

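No paired analysis was possible because the labels give no replicate numbers and tie no library to a mouse. Of 972 genes 971 kept their call and direction with a pseudocount of 5, 781 after rescaling, 767 by edgeR, 787 by DESeq2, 919 with the covariate and 273 with all 8 libraries, and none was called in the opposite direction under any of these. With all 8 libraries 274 genes passed (194 rises, 80 falls); without 1 library the counts were 656 to 972, with 440 to 650 rises and 203 to 322 falls, the lowest counts of all genes and of falls being those without DIO 3. The no-filter fit called 870 rises and 415 falls among 6459 genes. Interaction counts without 1 subcutaneous library were 356 to 454 for epididymal, 80 to 112 for retroperitoneal and 520 to 710 for mesenteric fat. The epididymal count was lowest without DIO 3 (356). The retroperitoneal count fell to 92, 88, 80 and 85 without DIO 1, DIO 2, DIO 3 and lean 4, and was 275 with all libraries of both depots. The mesenteric count was 383 after rescaling and 142 with all libraries of both depots.

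Signs turned with all 8 libraries for Rxrg (0.069), Mcm6 (-0.10), Gsn (0.14), Ptpn1 (-0.25), Adar (-0.44), Smc4 (-0.29), Car3 (0.18), Fabp4 (0.19), Nr1h3 (0.30), Fn1 (0.13), Ndufb3 (0.12) and Des (-0.27), none of them past the threshold there. Among genes that had not passed, leaving out 1 library also turned the sign, over ranges of -0.061 to 0.024 for Nr1h3, -0.77 to 0.48 for Fn1, -0.067 to 0.53 for Mrc1 and -0.43 to 0.0043 for Siglec1. The causes were not tested.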
